A study of Mus musculus with 48 samples.

Results

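The transcripts described here are those of 9 genes of neutrophils and of acute inflammation, S100a8, S100a9, Lcn2, Ngp, Camp, Il1b, Tnf, Il6 and Il1r1, out of 18879 genes named on the array. The set was chosen by the measured level of S100a8, which lay far lower in the hypothalamus of Per3 5/5 mice than in that of wild-type (WT) mice, so this comparison is given for all 9 genes as a description without a test. Per3 5/5 mice (named Boxhill in the labels) and Per3 4/4 mice (Coach) carried the human PER3 exon with the 5-repeat or the 4-repeat form of its coding tandem repeat in place of the mouse sequence. Each knock-in line was homozygous and on a C57BL/6 background, and was compared with WT mice of that background. All 24 mice, 8 of each genotype, had been kept awake for 12 h through the light phase before the brain was taken, so the data hold no rested mice, and sleep loss itself cannot be separated from genotype or tissue. Blocks of frontal cortex and of hypothalamus from every mouse were hybridised to 48 one-colour Agilent arrays.

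S100a8 and S100a9 encode the 2 subunits of calprotectin, a calcium- and metal-binding protein that makes up much of the neutrophil cytosol and is released as an alarm signal. Ngp (neutrophilic granule protein) and Camp (the cathelicidin antimicrobial peptide) are products of secondary granules that are transcribed while neutrophils mature in the bone marrow, and Lcn2 (lipocalin 2, which withholds iron from bacteria) is made both by neutrophils and by reactive brain cells. Il1b, Tnf and Il6 encode the acute-phase cytokines, of which the first pair also promote sleep, and Il1r1 encodes the signalling receptor for interleukin-1, carried in brain mainly by endothelium and some neurons. Neutrophils are scarce in healthy brain tissue and lie mostly in blood vessels and meninges. In a dissected block, fewer cells of a type and less RNA per cell cannot be told apart.

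The promoters of the 4 granule and calprotectin genes whose levels moved together across mice are shown first, with that of Lcn2, whose level followed them less closely. Each is the 250 bases before the transcription start from RefSeq (build GRCm38.p6), written 5′ to 3′ on the gene's strand, and the capitals mark matches to the searched motifs.
S100a8, chr3:90668821-90669070 (+ strand): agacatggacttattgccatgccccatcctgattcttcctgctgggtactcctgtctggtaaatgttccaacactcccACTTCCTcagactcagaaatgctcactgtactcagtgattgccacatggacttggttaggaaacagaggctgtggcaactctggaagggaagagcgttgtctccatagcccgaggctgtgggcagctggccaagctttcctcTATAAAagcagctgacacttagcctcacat
S100a9, chr3:90695722-90695971 (- strand): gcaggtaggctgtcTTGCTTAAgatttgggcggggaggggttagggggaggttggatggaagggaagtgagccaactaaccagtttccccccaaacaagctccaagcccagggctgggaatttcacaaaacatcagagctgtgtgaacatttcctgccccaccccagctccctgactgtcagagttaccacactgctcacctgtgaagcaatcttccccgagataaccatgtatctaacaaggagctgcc
Ngp, chr9:110419558-110419807 (+ strand): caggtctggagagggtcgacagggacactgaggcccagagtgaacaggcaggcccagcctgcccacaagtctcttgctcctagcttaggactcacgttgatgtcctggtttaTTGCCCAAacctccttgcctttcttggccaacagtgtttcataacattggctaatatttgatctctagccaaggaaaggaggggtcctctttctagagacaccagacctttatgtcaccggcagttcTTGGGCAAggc
Camp, chr9:109849457-109849706 (- strand): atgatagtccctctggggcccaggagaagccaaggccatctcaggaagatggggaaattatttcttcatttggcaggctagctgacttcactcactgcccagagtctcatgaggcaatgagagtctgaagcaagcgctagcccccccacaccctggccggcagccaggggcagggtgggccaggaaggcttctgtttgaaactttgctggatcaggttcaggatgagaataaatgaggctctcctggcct
Lcn2, chr2:32387740-32387989 (- strand): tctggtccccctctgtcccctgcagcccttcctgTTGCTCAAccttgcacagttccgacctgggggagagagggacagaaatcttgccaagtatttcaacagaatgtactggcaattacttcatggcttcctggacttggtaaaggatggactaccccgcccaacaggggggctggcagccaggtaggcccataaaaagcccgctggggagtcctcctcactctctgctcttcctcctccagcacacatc
The motifs searched on both strands were TTGCNNAA, bound by C/EBP factors that drive granule genes, AGGAAGT, bound by PU.1, the TATA box TATAAA, and the NF-kappa-B site. Capitals in S100a8 are a PU.1 match 172 to 166 bases before the start and a TATA box 30 to 25 bases before it. A C/EBP match lies 236 to 229 bases before the start of S100a9, 216 to 209 bases before that of Lcn2, and at 138 to 131 and 11 to 4 bases before that of Ngp, while the Camp window holds none of the 4 motifs. Among all 32851 promoter windows of this length, 9.56% hold the C/EBP motif, 7.69% the PU.1 motif, 12.4% the TATA box and 7.25% the NF-kappa-B motif. Among the 9 genes, 5 hold a C/EBP match (with 2 start sites counted for Il1r1), and the NF-kappa-B motif is found in Il6 and Il1r1. None of the matches overlapped another in the windows printed, and a match is a description of letters, not of a bound site.

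Levels are log2 signals relative to the 75th percentile of the array, so 0 is the level of a probe at that percentile, and each gene was read by 1 probe. The 75th percentile itself ranged from 307.2 to 1884 signal units over the arrays, and 27850 to 32963 of 41174 probes were well above background on an array. In the hypothalamus that percentile spanned 1206 to 1884 in WT, 307.2 to 1575 in Per3 4/4 and 916.6 to 1217 in Per3 5/5. Brightness therefore differed between the genotypes, and its part in the differences of dim probes was not tested. Over all probes, r between any pair of arrays of the same group was 0.968 to 0.989. One array stood apart, the hypothalamus of WT replicate 8, where the summed level of 11 anterior pituitary genes was 1004, against a WT median of 91.96. It also had the highest WT hypothalamic level of S100a8, Lcn2, Ngp, Camp, Il1b and Il1r1, so the hypothalamic differences from WT are also given without it. The correlations, the medians of gene lists and the hypothalamic values of scan day 3 include it.

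S100a8 was above background on all 8 WT hypothalamus arrays, on 7 of the Per3 4/4 arrays and on 6 of the Per3 5/5 arrays. In WT hypothalamus its level had a lowest value of -4.46, a median of -2.37 and a highest value of -1.08. The lowest level in Per3 4/4 hypothalamus was -5.60, the median -4.70 and the highest -1.95. In Per3 5/5 hypothalamus the lowest level was -8.41, the median -5.83 and the highest -3.26. The groups overlapped, with 6 of 8 Per3 5/5 arrays and 5 of 8 Per3 4/4 arrays below every WT array. The lowest Per3 5/5 value is from an array where the probe was not above background. The means were -2.51 ± 1.22 in WT, -4.15 ± 1.21 in Per3 4/4 and -5.62 ± 1.62 in Per3 5/5 (SD, n = 8 each).

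**Figure D1:**
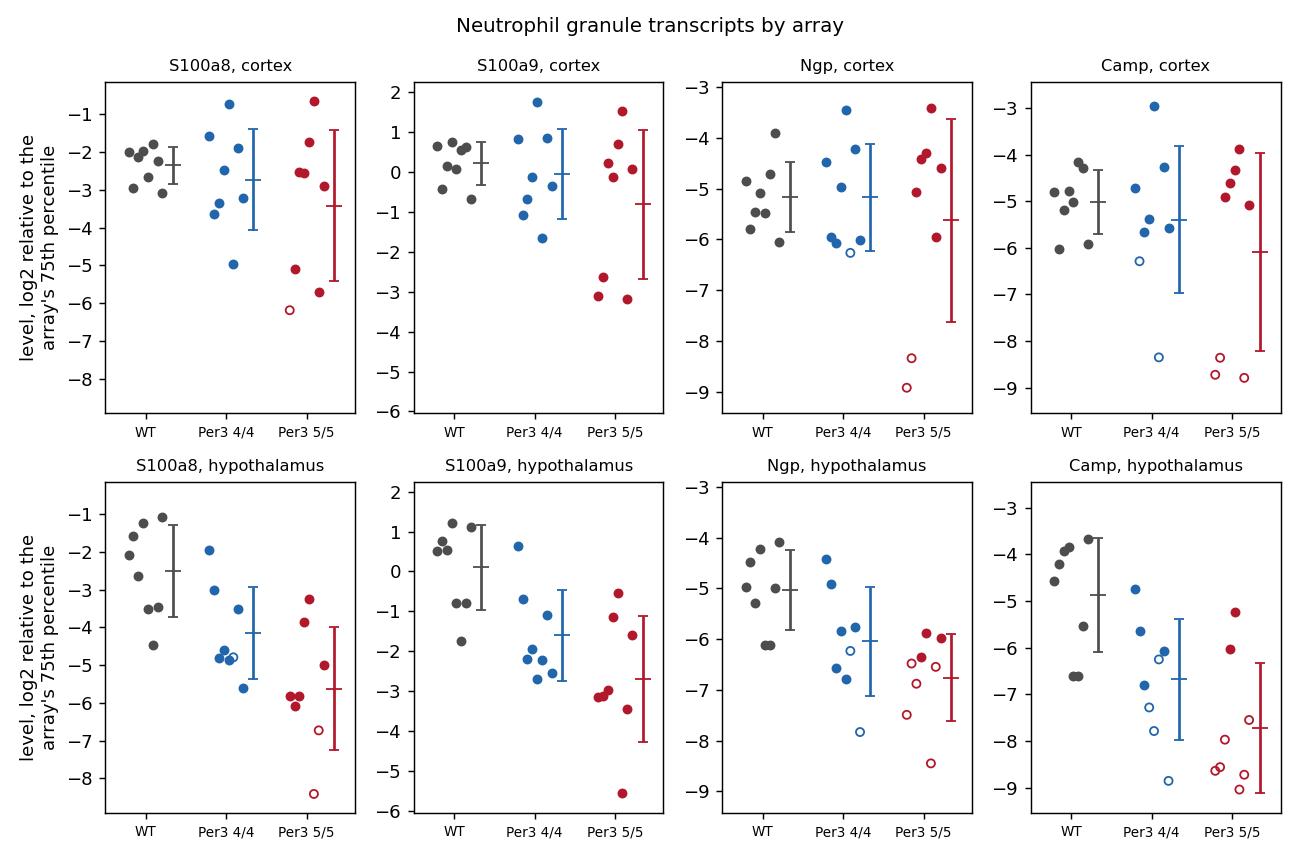
Levels of S100a8, S100a9, Ngp and Camp (log2 relative to the 75th percentile of the array) in cortex (top) and hypothalamus (bottom) of the 3 genotypes (8 mice each). Each point is 1 array, open where the probe was not well above background, and the bar is the mean with its SD (n = 8). In the hypothalamus the Per3 5/5 means lie lowest for all 4 genes, and in the cortex 3 Per3 5/5 mice lie below every WT mouse for S100a8, S100a9 and Camp.

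S100a9, the partner subunit, was above background on every array. Its hypothalamic level ran from -1.74 through a median of 0.52 to 1.21 in WT. It ran from -2.69 through -2.07 to 0.64 in Per3 4/4, and from -5.54 through -3.04 to -0.54 in Per3 5/5. The order of the 3 groups was that of S100a8, and 5 of 8 arrays of each knock-in genotype lay below every WT array. Camp was above background on 8 WT, 4 Per3 4/4 and 2 Per3 5/5 hypothalamus arrays, with medians of -4.39, -6.53 and -8.27. Ngp was above background on 8, 6 and 3 arrays in the same order, with medians of -4.98, -6.04 and -6.51. For both granule genes, the values of most Per3 5/5 arrays were therefore at the limit of detection, and their differences from WT are less exact than that of S100a9.

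Per3 5/5 minus WT in the hypothalamus, the comparison that chose the genes, is described without a test. The log2 difference was -3.11 for S100a8 (8.63-fold lower), -2.84 for Camp, -2.78 for S100a9 and -1.73 for Ngp. It was -1.32 for Lcn2 and -0.36 for Il1r1. Il6, Il1b and Tnf were below background on all 8 Per3 5/5 arrays, and no difference is given for them. Without WT replicate 8 the differences were -2.91 for S100a8, -2.67 for Camp, -2.64 for S100a9, -1.59 for Ngp, -0.75 for Lcn2 and -0.20 for Il1r1. Camp and Ngp were above background on 2 and 3 Per3 5/5 arrays, so their values rest mostly on undetected signals. On the third scan day, the only one with arrays of both genotypes (4 Per3 5/5 and 3 WT), S100a8 differed by -2.84, S100a9 by -2.31 and Camp by -2.36. WT replicate 8 is among these 3 WT arrays, with S100a8 at -1.08 against -4.46 and -3.47 on the others. The day was not fitted without it. Of the 4 Per3 5/5 arrays, S100a8 was above background on replicates 5 and 8 alone. After another background correction (normexp, with 50 signal units added to every spot), the differences shrank to -1.28 for S100a8, -0.56 for Camp and -0.37 for Ngp. The part of the added constant in this was not tested. Markers of other cells lay lower in the same comparison, 9 of 9 meningeal genes (median -0.37) and 13 of 14 microglia and macrophage genes (median -0.39). So did 10 of 11 anterior pituitary (-0.69), 9 of 10 choroid plexus (-0.21) and 8 of 9 reactive astrocyte genes (-0.08). The counts were 8 of 13 for platelet and lymphocyte, 7 of 12 for endothelial and 2 of 5 for red blood cell genes. Of all probes 46.1% lay below 0, and the part of these cells in the comparison was not tested. Of all 30735 probes, 18.8% had an adjusted p under 0.05 in this comparison, from which nothing is read about the 9 genes.

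Per3 4/4 minus WT in the hypothalamus was tested in limma with Benjamini-Hochberg adjustment over all 30735 probes, and it shares its WT arrays with the comparison above. Of the 6 genes tested, Camp had an adjusted p under the threshold, with a log2 difference of -1.81 (SE 0.61, adjusted p = 0.0487), and 15.1% of all probes passed. Camp was above background on 4 of 8 Per3 4/4 arrays and was tested because all 8 WT arrays measured it, so this call is not support for a difference of that size. The difference was -1.69 for S100a9 (SE 0.60, adjusted p = 0.0581), -1.64 for S100a8 (SE 0.64, adjusted p = 0.0810) and -1.01 for Ngp (SE 0.43, adjusted p = 0.104). None of those 3 passed, and their 95% intervals, unadjusted for the number of probes, were -2.94 to -0.44, -2.96 to -0.31 and -1.90 to -0.13. Il1r1 differed by -0.34 (adjusted p = 0.206). Il6 was detected on 6 WT arrays and on none of Per3 4/4, so its fit (adjusted p = 0.112) gives no measured difference. Without WT replicate 8 the differences were -1.63 for Camp, -1.55 for S100a9, -1.43 for S100a8 and -0.88 for Ngp, and none passed (adjusted p 0.0851 to 0.175). The array that stood apart is among the WT arrays of this comparison, and the medians of the 11 anterior pituitary genes were -0.79 here and -0.69 for Per3 5/5 minus WT. Their part in the neutrophil differences was not tested. The Camp call was lost without Per3 4/4 replicate 2, 3, 4, 5, 7 or 8 or without WT replicate 1, 2, 3, 4 or 8 (highest adjusted p = 0.0933), and with scan day as a block (-2.01, adjusted p = 0.132). S100a9 passed without Per3 4/4 replicate 1 (adjusted p = 0.0435) or WT replicate 6 (adjusted p = 0.0406), and in the fit with replicate block (adjusted p = 0.0442), in which Camp did not (adjusted p = 0.0692).

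On scan day 2, with 3 Per3 4/4 and 5 WT arrays, S100a8 differed by -2.18 (adjusted p = 0.550) and S100a9 by -2.45 (adjusted p = 0.513) in limma. On scan day 3, with 1 Per3 4/4 and 3 WT arrays, the values were -2.60 and -2.08, the lone array being assumed to vary like the others. WT replicate 8, the array that stood apart, is among these 3 WT arrays. With scan day as a block the S100a8 difference was -1.99 (adjusted p = 0.144). The direction within days was that of all days together for both subunits, and no fit within a day called either.

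Per3 5/5 minus Per3 4/4 in the hypothalamus, which shares arrays with both comparisons above, called none of the 6 genes tested. It also called 0% of all 30735 probes, while 4983 had an unadjusted p under 0.05. S100a8 differed by -1.47 (95% interval -2.80 to -0.15, limma adjusted p = 0.275) and S100a9 by -1.09 (-2.34 to 0.16, adjusted p = 0.354). Ngp differed by -0.71 (adjusted p = 0.392), detected on 3 and 6 arrays. Camp was detected on 2 and 4 arrays and Il6 on none of either group, and both entered the fit through WT, so their differences are not read as measured. Neither subunit of calprotectin passed, and the width of these intervals does not show that the 2 repeat forms act alike. Within scan day 1 (4 arrays of each) S100a8 differed by -1.80, and within scan day 3 (4 against 1) by -0.25.

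**Figure D2:**
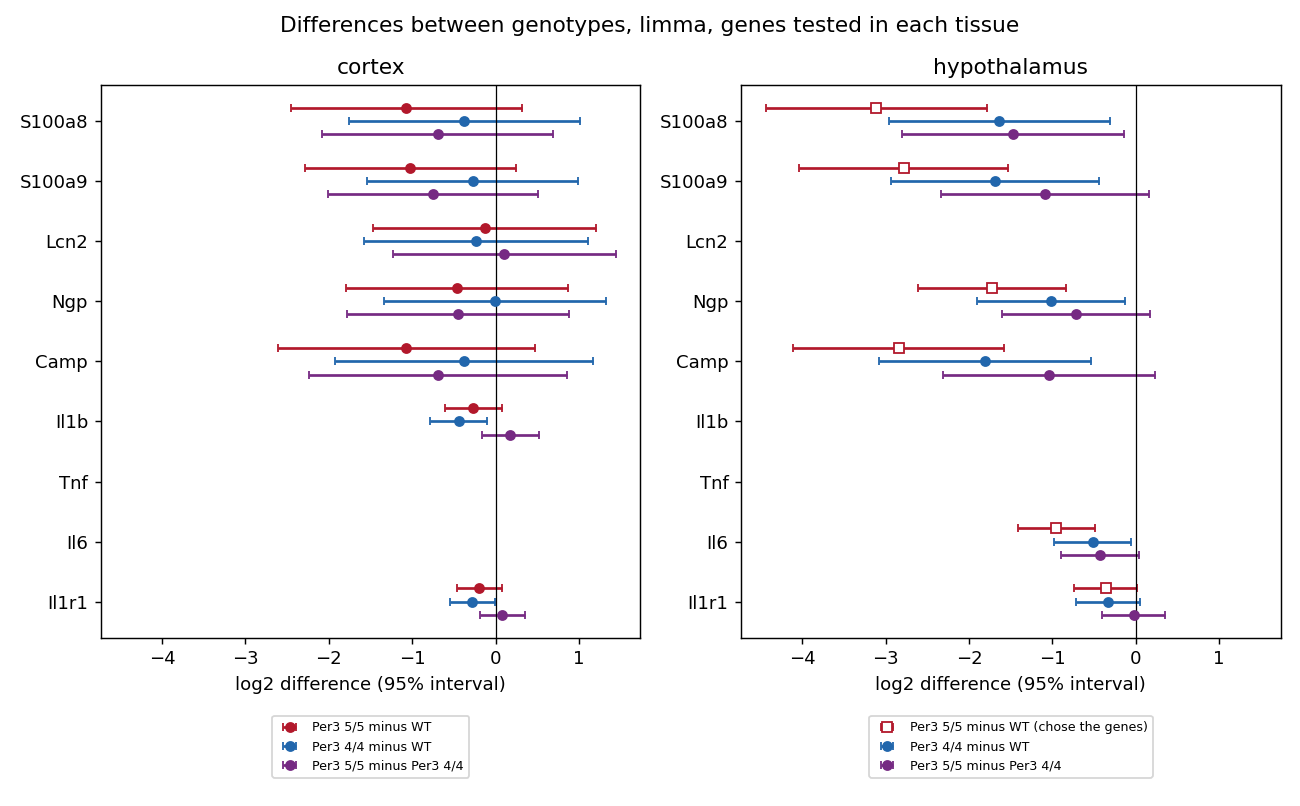
Log2 differences between genotypes with 95% intervals from limma for each gene tested in cortex (left) and hypothalamus (right). Open squares mark the comparison that chose the genes. For S100a8 in the hypothalamus the differences are -3.11 for Per3 5/5 minus WT, -1.64 for Per3 4/4 minus WT and -1.47 for Per3 5/5 minus Per3 4/4, the hypothalamic Il6 intervals rest on undetected knock-in signals, and in the cortex every interval of S100a8, S100a9, Lcn2, Ngp and Camp spans 0.

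In the cortex the knock-in groups spread widely around the WT level of the same transcripts. S100a8 ran from -3.08 through a median of -2.19 to -1.80 in WT, with every array above background. It ran from -4.97 through -2.85 to -0.72 in Per3 4/4 and from -6.19 (not above background) through -2.73 to -0.66 in Per3 5/5. The 3 lowest Per3 5/5 cortices were those of replicates 1, 7 and 2, at -6.19, -5.71 and -5.11, and the same 3 mice had the lowest S100a9 of the group at -3.10, -3.18 and -2.64. The other 5 Per3 5/5 mice lay within or above the WT range of S100a8, and the groups overlapped.

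Of 7 genes tested in the cortex, none passed in any comparison. Per3 5/5 differed from WT by -1.07 for S100a8 (95% interval -2.46 to 0.32, limma adjusted p = 0.280), -1.02 for S100a9 (adjusted p = 0.257) and -1.07 for Camp (adjusted p = 0.334). Of all 29714 probes, 12.4% passed in that comparison. Per3 4/4 differed from WT by -0.38 for S100a8 (adjusted p = 0.727), where 22.5% of all probes passed. Per3 5/5 differed from Per3 4/4 by -0.69 (adjusted p = 0.607), where 0% passed and 4656 had an unadjusted p under 0.05. Within scan days S100a8 in the cortex differed by -0.37 for Per3 5/5 minus WT on day 3, and by -0.19 on day 2 and -0.85 on day 3 for Per3 4/4 minus WT. The difference of the knock-in lines was -1.34 on day 1 and took the opposite sign, 0.48, on day 3, with 1 Per3 4/4 array.

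Whether the differences between genotypes were unlike in the 2 tissues was tested as an interaction over 30915 probes. Each interaction holds hypothalamus arrays of the comparison that chose the genes. For Per3 4/4 minus WT, the hypothalamic minus the cortical difference was -1.26 for S100a8 (95% interval -3.12 to 0.60, limma adjusted p = 0.929) and -1.43 for Camp (adjusted p = 0.929). None of 8 genes passed, with 0.00323% of all probes called. None passed for Per3 5/5 minus Per3 4/4 either, with 0% of all probes called. For Per3 5/5 minus WT the value, which holds the choosing comparison, was -2.04 for S100a8 and -1.76 for S100a9.

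Both tissues came from the same mouse, which allowed hypothalamus to be compared with cortex within mice. Most probes passed here, 58.5% in Per3 5/5, 59% in Per3 4/4 and 59.5% in WT, so a call says little of these genes. The Per3 5/5 and WT hypothalamus arrays together chose the set. Values of Per3 5/5 are given without a test, and the tests in WT are not independent of the choice. Of 8 genes tested, S100a9 and Il1b were lower in the hypothalamus of Per3 4/4 mice, and in WT mice Il1b alone passed. Il1b was below background on every hypothalamus array and entered these fits through the cortex, so its calls are not read as support. For S100a8, hypothalamus minus cortex was -2.20 in Per3 5/5 (lower in 7 of 8 mice) and -1.42 in Per3 4/4 (limma adjusted p = 0.0595, 6 of 8 mice). In WT it differed by -0.16 (95% interval -1.47 to 1.16, adjusted p = 0.853, 5 of 8 mice). For S100a9 it was -1.87 in Per3 5/5 (8 of 8 mice) and -1.52 in Per3 4/4 (adjusted p = 0.0313, 7 of 8 mice).

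Camp differed by -1.63 and Ngp by -1.13 between the tissues of Per3 5/5, with 2 and 3 hypothalamus arrays above background. The S100a9 call of Per3 4/4 was lost without replicate 4, 5, 7 or 8 (highest adjusted p = 0.123). Camp there differed by -1.28 (adjusted p = 0.0941) and passed without replicate 6, while S100a8 passed without replicate 2 or 6.

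**Figure D3:**
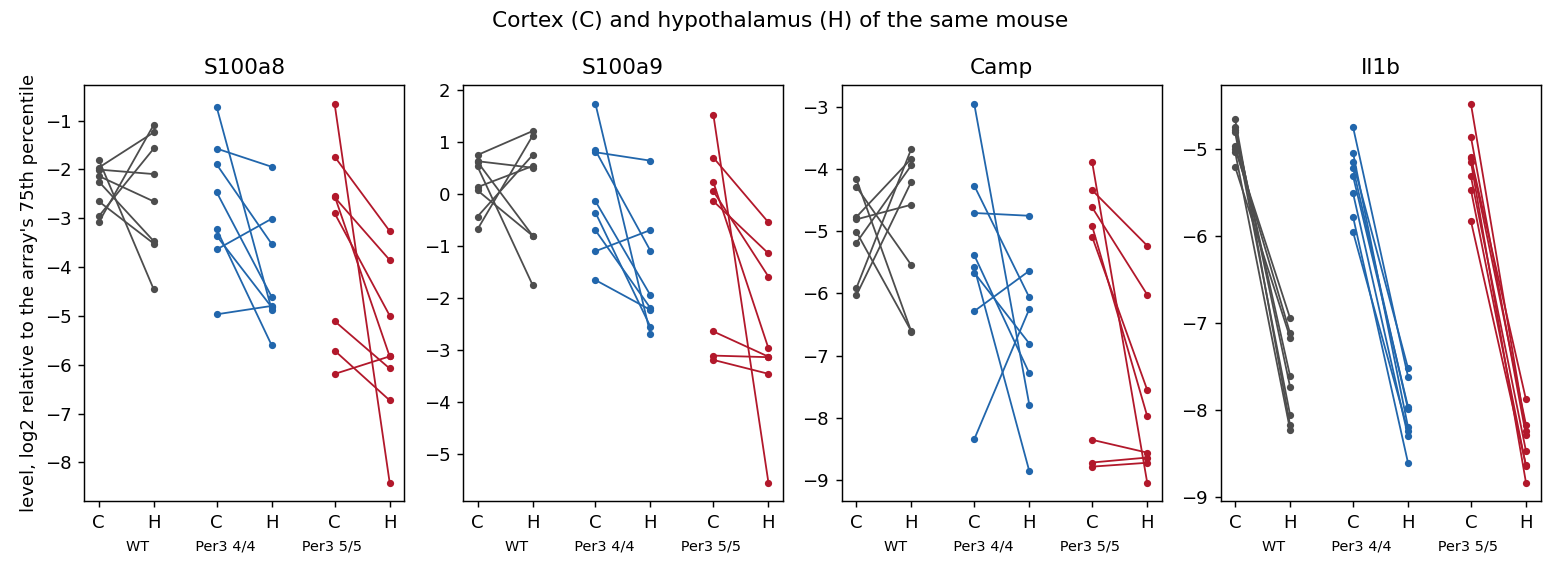
Levels of S100a8, S100a9, Camp and Il1b (log2 relative to the 75th percentile of the array) in cortex (C) and hypothalamus (H), with a line joining the tissues of each mouse, in a panel per gene with the genotypes side by side (8 mice each). Il1b lies lower in the hypothalamus of all 24 mice, where its probe was below background on every array. The S100a8 lines of WT mice cross, with 5 of 8 lower in the hypothalamus.

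The pair of calprotectin transcripts moved together across mice. After removal of the genotype means, S100a9 followed S100a8 with r = 0.982 in the cortex and 0.980 in the hypothalamus over 24 mice (Spearman rho 0.973 and 0.976, permutation p = 1e-05 for each, the smallest that 100000 resamples can give, adjusted p = 4.17e-05 over 25 relations). Without the 2 mice farthest from the median the values were 0.977 and 0.970. Camp followed S100a8 with r = 0.965 in the cortex and 0.903 in the hypothalamus, and Ngp with 0.882 and 0.861 (rho 0.953, 0.930, 0.899 and 0.866, permutation p = 1e-05 and adjusted p = 4.17e-05 for each). Without the 2 farthest mice these were 0.953, 0.907, 0.902 and 0.833. Within each genotype of 8 mice, and within each scan day, r was 0.685 or above for the 3 genes. The lowest of these was Ngp in WT cortex (exact permutation p = 0.0603). Levels compared in this way come from the same array, and so share its brightness and scaling.

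Lcn2 followed S100a8 in the hypothalamus (r = 0.565, permutation p = 0.00372, adjusted p = 0.0116, rho 0.616, adjusted p = 0.00503, r = 0.498 without the 2 farthest mice). In the cortex it did not (r = 0.159, permutation p = 0.458, adjusted p = 0.636, rho 0.110). The hypothalamic relation was not seen in Per3 4/4 (r = 0.00594, exact permutation p = 0.987) or on scan day 1 (r = -0.0825, exact permutation p = 0.830), and was 0.795 in Per3 5/5 and 0.789 in WT. Lcn2 was above background on 2 Per3 5/5, 4 Per3 4/4 and 5 WT hypothalamus arrays of 8 each. Its hypothalamic relation therefore rests mostly on undetected signals. In the cortex Il6 followed S100a8 (r = 0.721, permutation p = 7e-05, adjusted p = 0.00025, rho 0.661, r = 0.672 without the 2 farthest mice), although its probe was below background on most arrays, and within WT mice r was -0.229 (exact permutation p = 0.574). Il1r1 did so more weakly (r = 0.524, permutation p = 0.00859, adjusted p = 0.0231; rho 0.430, adjusted p = 0.0866; r = 0.552 without the 2 farthest mice).

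No relation was detected between the neutrophil transcripts of the 2 tissues of a mouse. Both arrays of a mouse lay on the same slide, so any relation between tissues cannot be told apart from shared hybridisation. S100a8 in the hypothalamus was related to S100a8 in the cortex with r = 0.0728 (permutation p = 0.734, adjusted p = 0.797, rho 0.157, r = -0.0133 without the 2 farthest mice), S100a9 with 0.0485, Camp with 0.111 and Ngp with 0.0213. Within genotypes r for S100a8 was -0.455 among WT, 0.268 among Per3 4/4 and 0.0788 among Per3 5/5 mice (exact permutation p = 0.253, 0.516 and 0.854), and within the 3 scan days it lay between -0.0709 and 0.504. Per3 5/5 replicate 6 had the highest S100a8 of its group in the cortex, -0.66, and the lowest in the hypothalamus, -8.41. Its S100a9 levels were 1.53 and -5.54. Of the remaining genes Tnf was related between tissues (r = 0.517, permutation p = 0.00923, adjusted p = 0.0231; r = 0.632 without the 2 farthest mice), at levels below background on nearly all arrays, and Il1r1 by rank (rho 0.511, adjusted permutation p = 0.0308; r = 0.342, adjusted p = 0.194).

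**Figure D4:**
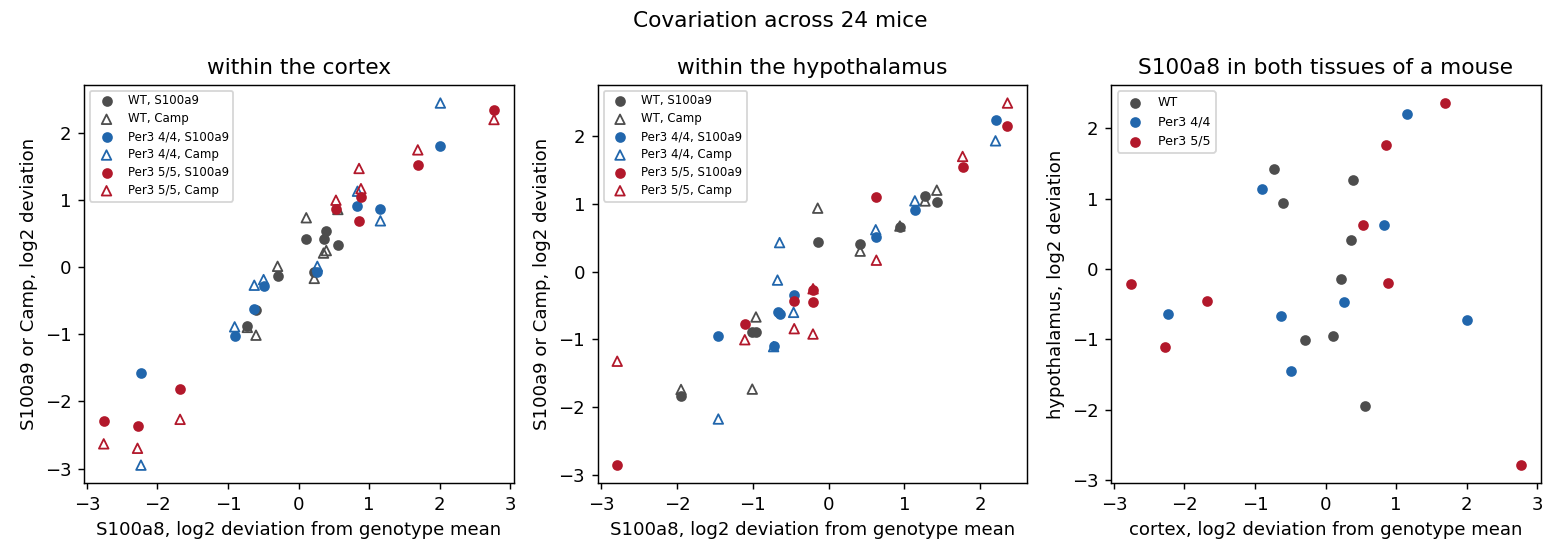
Deviations from the genotype mean (log2) of S100a9 (filled circles) and Camp (open triangles) against S100a8 within cortex (left) and hypothalamus (middle), and of S100a8 in the hypothalamus against S100a8 in the cortex of the same mouse (right), for 24 mice coloured by genotype. S100a9 follows S100a8 with r = 0.982 and 0.980, and the tissues of a mouse are related with r = 0.0728.

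Among tested probes with a gene name, 1 per gene, the 3 most like S100a8 in either tissue, apart from the 9 genes, belonged to the neutrophil list. Probes without a name (27660 of 41174 had 1) were not ranked. In the cortex the first 5 after removal of the genotype means over 24 arrays were Retnlg (r = 0.940), Ltf (0.937, lactoferrin of secondary granules), Chil3 (0.914, a chitinase-like lectin), Cav1 (0.845, caveolin of endothelium) and Ms4a7 (0.845, of macrophages). In the hypothalamus they were Chil3 (0.926), Ltf (0.914), Retnlg (0.803), H2-Ab1 (0.731, a class II antigen-presenting chain) and Ms4a1 (0.717, CD20 of B cells). Of 24 hypothalamus arrays, Chil3 was above background on 23, Ltf on 18, Retnlg on 14 and Ms4a1 on 7. The r of Ms4a1 therefore rests mostly on undetected signals. An r over 0.7 was reached by 4 of 17 tested genes of a list of other neutrophil genes in the cortex and by 3 of 22 in the hypothalamus, against 0.583% and 0.0490% of all probes. Its median r was 0.509 and 0.320. In the cortex 3 of 12 platelet and lymphocyte genes, 2 of 9 meningeal genes and 2 of 14 microglia and macrophage genes reached it as well, so the likeness is not particular to neutrophil genes.

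Ltf, Chil3, Retnlg and Stfa2l1, in the comparison that chose the genes, differed by -2.27, -2.01, -1.81 and -1.48 between Per3 5/5 and WT hypothalamus, and 17 of 22 genes of that list lay below 0. The median of the list was -0.43, against 0.03 for all probes. All 22 genes were above background on at least 6 WT arrays but 15 on as many Per3 5/5 arrays, so others are in the list through the group where they were high, and the count and median are no support for a difference. In the 2 other hypothalamic comparisons none of the 22 passed, with medians of -0.04 for Per3 4/4 minus WT and -0.32 for Per3 5/5 minus Per3 4/4, against 0.02 and 0.0046 for all probes. None of 17 passed in the cortex, where the medians were -0.03, 0.10 and -0.15. Elane, the elastase of primary granules, was not well above background on any array of either tissue. The neutrophil list also holds Itgam, which microglia express.

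Other cell types of the block moved with S100a8 within groups. In the cortex the median r with S100a8 was 0.680 over 9 meningeal genes, 0.513 over 14 microglia and macrophage genes, 0.562 over 5 red blood cell genes and 0.363 over 12 platelet and lymphocyte genes. It was 0.361 over 12 endothelial genes, 0.239 over 8 reactive astrocyte genes, 0.249 over 7 choroid plexus genes and 0.205 over 8 anterior pituitary genes, against 0.0433 over all probes. In the hypothalamus the medians were 0.545 for meningeal, 0.450 for microglia and macrophage, 0.332 for red blood cell, 0.318 for platelet and lymphocyte, 0.118 for endothelial, 0.267 for reactive astrocyte, 0.0744 for choroid plexus and 0.378 for anterior pituitary genes, against -0.0236 over all probes. These are descriptions over 24 arrays, and the part of such cells in the S100a8 differences was not tested.

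The summed level (linear signal, in units of the 75th percentile) of the 9 meningeal genes in the hypothalamus was 20.4 to 42.7 in WT, 22.7 to 51.7 in Per3 4/4 and 11.6 to 35.8 in Per3 5/5. Microglia and macrophage genes summed to 26.1 to 38.3, 27.2 to 34.2 and 12.1 to 32.9 in the same order. The lowest sum of the microglia genes in Per3 5/5 was that of replicate 6, which also had the lowest S100a8. Red blood cell genes, which would mark retained blood, summed to 81.7 to 251 in WT, 88.4 to 200.2 in Per3 4/4 and 97.8 to 391 in Per3 5/5, and the ranges overlapped. All 9 meningeal and all 14 microglia and macrophage genes lay lower in Per3 5/5 than in Per3 4/4 hypothalamus (medians -0.65 and -0.52), without any of them passing. In the cortex 9 of 9 and 13 of 14 lay lower in Per3 5/5 than in WT (medians -0.32 and -0.27), with P2ry12 alone passing. In hypothalamic Per3 4/4 minus WT their medians were 0.24 and 0.10, with none called.

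Across the marker lists the genes that passed were 3 in Per3 5/5 cortex (1 of 14 microglia and macrophage, 1 of 12 platelet and lymphocyte and 1 of 7 choroid plexus genes, beside 12.4% of all probes). They were 3 in Per3 4/4 cortex (2 of 12 endothelial and 1 of 7 choroid plexus genes, beside 22.5%) and 2 in Per3 4/4 hypothalamus (1 of 12 endothelial and 1 of 10 choroid plexus genes, beside 15.1%). No red blood cell, reactive astrocyte, meningeal or anterior pituitary gene did in any tested comparison. In Per3 5/5 cortex P2ry12, a receptor of resting microglia, differed from WT by -0.77 (limma adjusted p = 0.0203), while Itga2b, the platelet integrin, was 0.74 higher (adjusted p = 0.0351) and Folr1, of choroid plexus, 0.43 higher (adjusted p = 0.0208). Slc2a1 in Per3 4/4 cortex, the glucose carrier of brain endothelium, differed from WT by -0.60 and Cdh5 by -0.49, and Folr1 was 0.33 higher. The cortical medians of the 7 choroid plexus genes were -0.07 for Per3 5/5 and -0.12 for Per3 4/4 minus WT. Ttr, Kcne2 and Otx2 of that list were detected on at most 2 of 24 cortex arrays and were not tested there. In Per3 4/4 hypothalamus Aqp1, of choroid plexus, differed from WT by -0.91 (limma adjusted p = 0.0358) and Kdr, of endothelium, by -0.50 (adjusted p = 0.0318).

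The cytokine transcripts were near the limit of detection, and Il1b was detected in the cortex alone. In the cortex its probe, read by 10 spots, was above background on 23 of 24 arrays, with medians of -4.89 in WT, -5.26 in Per3 4/4 and -5.13 in Per3 5/5. In the hypothalamus it was below background on all 24 arrays. Set against a floor for undetected signals, Il1b was 4.35-fold lower in the hypothalamus than in the cortex of WT mice. It was 2.38-fold lower in Per3 4/4, whose cortex mean includes an undetected array, and 2.89-fold lower in Per3 5/5. These folds set the mean of the cortex against the mean, over hypothalamus arrays, of the lowest signal of any probe above background or the Il1b signal itself, whichever was higher. A probe can lie above that lowest signal and still be undetected, as S100a8 was at -4.79 in Per3 4/4 hypothalamus replicate 6. The folds are therefore not strict bounds. The hypothalamus signal was lower in 8 of 8 mice of each genotype. Il1b entered the tissue fits through the cortex arrays alone. The limma adjusted p (1.34e-13 in WT and 1.52e-13 in Per3 4/4) therefore set detected against undetected signals. They and the counts of mice add no support to these folds.

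In the cortex Il1b differed by -0.44 between Per3 4/4 and WT (SE 0.17, limma adjusted p = 0.0579), and 5 of 8 Per3 4/4 arrays lay below every WT array. It passed with slide as a random block (adjusted p = 0.0451), with each array centred on its median (adjusted p = 0.0471), in the fit with replicate block (adjusted p = 0.0308) and without Per3 4/4 replicate 7 (adjusted p = 0.0248). With scan day as a fixed block the difference was -0.23 (adjusted p = 0.408). With normexp background correction, which adds 50 signal units to every spot, Il1b was instead 0.46 higher in Per3 4/4 (limma adjusted p = 0.00262). The direction was therefore not the same under this setting as in the main fit. The settings differ in the spot signal used, its background and the added constant, and the part of each was not tested. The 75th percentile in Per3 4/4 cortex was 324.5 to 1102, against 972.8 to 1463 in WT. On scan day 2 alone the difference was -0.23 (adjusted p = 0.492) and on scan day 3 alone -0.42 (adjusted p = 0.738). Per3 5/5 differed from WT by -0.26 (adjusted p = 0.278), and by -0.0022 on scan day 3.

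**Figure D5:**
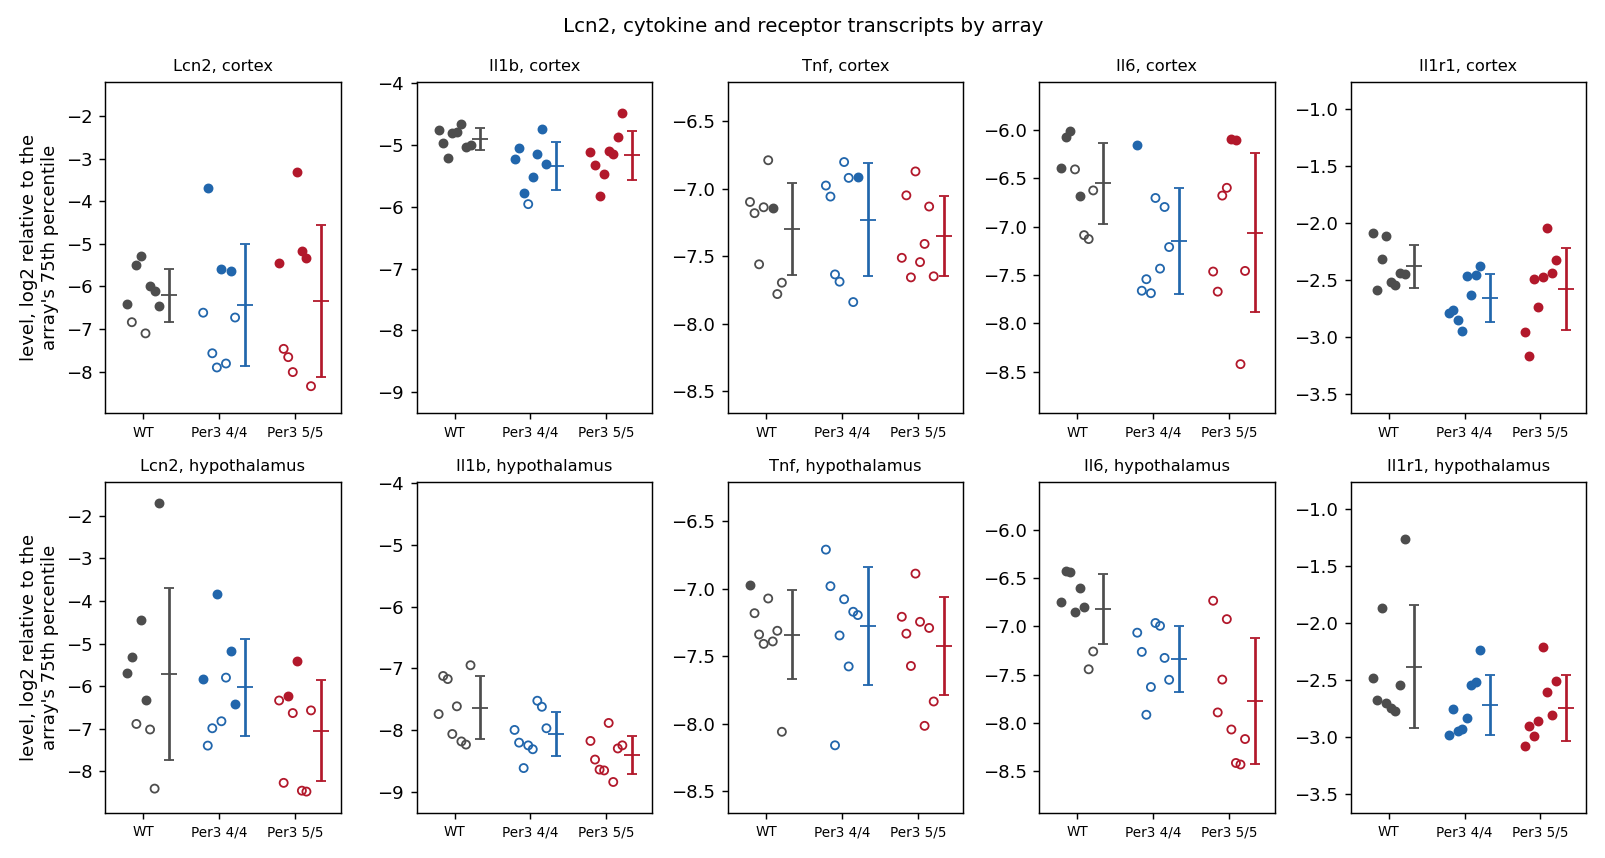
Levels of Lcn2, Il1b, Tnf, Il6 and Il1r1 (log2 relative to the 75th percentile of the array) in cortex (top) and hypothalamus (bottom) of the 3 genotypes (8 mice each), drawn as 1 point per array, open where not well above background, with mean and SD (n = 8). Il1b is detected in the cortex and not in the hypothalamus, Tnf on 3 arrays in all, and 1 WT hypothalamus stands at -1.70 for Lcn2.

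Tnf was above background on 3 of 48 arrays and was tested in neither tissue. Il6 was above background on 6 of 8 WT hypothalamus arrays and on none of the 16 knock-in arrays, and on 4 WT, 1 Per3 4/4 and 2 Per3 5/5 cortex arrays. Its hypothalamic medians were -7.98, -7.30 and -6.77 for Per3 5/5, Per3 4/4 and WT. The knock-in values are signals below the detection limit, so no difference or fold is read from them.

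Il1r1, the interleukin-1 receptor, was above background on all 48 arrays. In the hypothalamus its median was -2.61 in WT, -2.79 in Per3 4/4 and -2.83 in Per3 5/5. The WT mean of -2.38 ± 0.54 (SD, n = 8) was raised by replicate 8 at -1.26. Per3 4/4 minus WT was -0.34 with that array and -0.18 without it, and passed with neither. In the cortex Il1r1 differed by -0.28 between Per3 4/4 and WT (limma adjusted p = 0.124), with 5 of 8 Per3 4/4 arrays below every WT array. It passed with each array centred on its median (adjusted p = 0.0433), and differed by -0.059 with scan day as a block (adjusted p = 0.781), by -0.19 on scan day 2 and by 0.10 on scan day 3.

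Lcn2 was above background on 13 of 24 cortex arrays and 11 of 24 hypothalamus arrays, and its genotypes were compared by a test in the cortex alone, where none passed. Hypothalamus minus cortex passed in neither WT nor Per3 4/4. Its hypothalamic level ran from -8.41 through -6.01 to -1.70 in WT, from -7.40 through -6.12 to -3.84 in Per3 4/4 and from -8.48 through -6.60 to -5.41 in Per3 5/5. The highest WT value was that of replicate 8, the lowest was below background, and the groups overlapped.

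Other genes of interleukin-1, TNF and interleukin-6 signalling passed about as often as all probes did in the cortex. In Per3 5/5 cortex 3 of 23 passed against WT, beside 12.4% of all probes. Nlrp3, the inflammasome sensor, was 0.63 higher (limma adjusted p = 0.0297), and Ptgs2, which encodes cyclooxygenase-2, differed by -0.51 (adjusted p = 0.0468). Casp1, the protease that matures interleukin-1β, differed by -0.40 (adjusted p = 0.0314). In the hypothalamus the untested Per3 5/5 minus WT differences of these 3 were 0.49 for Nlrp3, -0.62 for Ptgs2 and -0.43 for Casp1. In Per3 4/4 cortex 5 of 23 passed against WT, 4 higher and 1 lower, beside 22.5% of all probes. Among them were Jak1, a kinase of cytokine receptors, at -0.27 (adjusted p = 0.00776), and Il6st, the shared receptor chain gp130, at 0.25 (adjusted p = 0.0268). Myd88, the adaptor of the interleukin-1 receptor, was 0.23 higher (adjusted p = 0.0332), as was Rela, a subunit of NF-kappa-B (adjusted p = 0.0341). Medians of the list were 0.01 and 0.01, against 0.06 and 0.02 for all probes. In the hypothalamus none of 24 passed in either tested comparison, with medians of 0.07 and -0.04. The chemokines Cxcl1 and Cxcl2 and the ligand Il1a were too dim to be tested in either tissue.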

How the data were processed

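RNA of 24 frontal cortices and 24 hypothalami was labelled with Cy3 by the authors and hybridised to Agilent mouse 4x44K arrays, 1 array per sample. The deposited files are Feature Extraction output. The processed signal used here is an intensity from which the scanner software had already subtracted background, per the file headers. The authors also deposited a table of log2 values, which lie around 0 for most probes; its centring is not given in the sources used here, and differences between its arrays were an alternative only. The 9 genes, the gene lists and the tests were chosen with earlier results of these data known.

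Each array's log2 processed signal was set relative to its own 75th percentile over 43379 non-control spots, spots flagged as outliers were left out (70 of 1728 member spots, none saturated), and spots of a probe were averaged. A probe was above background where at least 0.5 of its spots were. The test took in a probe detected on 6 or more of the 8 arrays in any group, 29714 in cortex and 30735 in hypothalamus. A member with fewer such arrays is given as values. In R 4.3.3 with limma 3.58.1, the 3 genotypes were compared in 1 fit per tissue, and tissues in a fit of 30915 probes without missing values with the mouse as a block. Both arrays of a mouse deviated together (r 0.109 to 0.688 in 24 of 24 mice). They also lay on the same slide, scanned on the same day, so mouse and hybridisation cannot be told apart. P-values were adjusted by Benjamini-Hochberg and called under 0.05, and all tests were two-sided. Relations across mice used Pearson's r and Spearman's rho with permutation p. Fits were tested on simulated data.

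Arrays were scanned on 3 days, and none of the days held the 3 genotypes equally (day 1 had 4 Per3 5/5 and 4 Per3 4/4 mice, day 2 had 3 Per3 4/4 and 5 WT, day 3 had 4 Per3 5/5, 1 Per3 4/4 and 3 WT). The number of arrays limits precision. Mice of a genotype came from 1 line, and nothing in the labels says how they were drawn from litters. All members and, of each list, up to 4 called genes per comparison with the largest difference are named. So are the 5 genes most like S100a8 in each tissue, among tested probes with a gene name. The lists were other neutrophil genes, genes of interleukin-1, TNF and interleukin-6 signalling, and markers of red blood cells, platelets and lymphocytes, microglia and macrophages, endothelium, reactive astrocytes, choroid plexus, meninges and anterior pituitary. Each list gene was read by its tested probe of highest mean signal. Promoters are from RefSeq (GRCm38.p6), whereas the array headers name mm9, and all 9 genes matched.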

Additional observations from a re-analysis of the deposited data

Results flagged for a closer look

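Of 54 groups of 8 arrays (9 genes in 6 groups), 1 held an array far from the others, where chance would give about 1 in 20. Tnf in WT hypothalamus replicate 8 was -8.06, with the nearest other array at -7.41, a gap of 0.597 of the whole range. The probe was not well above background on that array, which is also the array with the pituitary transcripts.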

How the results depend on the processing

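Of 913 values of single genes under other settings, 843 stayed the same, 30 lost a call, 21 gained one, 5 moved and 14 turned direction. A tested value stayed the same if it kept its direction and its side of the threshold. An untested value did so if its shift was smaller than the spread within groups, whatever its sign, and moved otherwise. Turns of direction were counted among tested values alone. Of 178 counts, 146 stayed within 1.5 times. The cause of each change was not tested. The normexp setting adds 50 signal units to every spot, which moves dim probes most.

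With normexp background correction, the calls numbered 4 for Per3 4/4 minus WT and 1 for Per3 5/5 minus WT in the cortex (0 of 7 otherwise), 0 for Per3 4/4 minus WT in the hypothalamus (1 otherwise) and 5 between the tissues of Per3 4/4 (2 otherwise). Under it the cortical differences turned to 0.11 for Camp and 0.22 for Il1b (Per3 5/5 minus WT) and to 0.20 for S100a8 and 0.46 for Il1b (Per3 4/4 minus WT), the hypothalamic ones to 0.049 for Ngp and 0.39 for Il6 (Per3 4/4 minus WT), and the tissue difference of S100a8 in WT to 0.056. In the deposited table of log2 values Camp was 0.45 for Per3 5/5 minus WT in the cortex.

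Cortical Per3 4/4 minus WT gave 2 calls with arrays centred on the median, and 1 each with slide as a random block, in the fit with replicate block and in the methods' 2-group test. Hypothalamic Per3 4/4 minus WT gave 0 calls without a filter on dim probes, with scan day as a fixed block, with slide as a random block, and within scan day 2 or scan day 3 alone. On day 3 alone Il1r1 in the cortex was 0.10 (Per3 4/4 minus WT), S100a8 in the cortex 0.48, and Ngp 1.12 and Camp 1.22 in the hypothalamus (Per3 5/5 minus Per3 4/4), and on day 1 alone Il6 there was 0.19.

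Leaving out each replicate gave 0 to 1 calls for Per3 4/4 minus WT in the cortex, 0 to 2 in the hypothalamus and 1 to 4 between the tissues of Per3 4/4. The S100a8 tissue difference in WT ran from -0.46 to 0.20.

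Replicate numbers are shared between genotypes as numbers only, with r of same-numbered arrays from -0.42 to 0.518. With that replicate block, S100a9 in Per3 4/4 minus WT hypothalamus passed (adjusted p = 0.0442) and Camp did not (0.0692), and Il1b in Per3 4/4 minus WT cortex passed (0.0308). Low signal over background limits Camp, Lcn2, Il6, Tnf and hypothalamic Il1b. The hypothalamic Il6 values above are of signals below background in the knock-in arrays. Hypothalamic Camp on day 3 was above background on Per3 5/5 replicate 5 alone among the knock-in arrays. No direction is read from these Il6 and Camp values.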
